A study of Mus musculus with 9 samples.

Results

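The genes described here belong to the unfolded protein response of the endoplasmic reticulum (ER) and to the integrated stress response that acts through the transcription factor ATF4. They are 45 genes chosen by symbol, with earlier results of these data known, and all 45 had a row among the 24228 genes used. When misfolded proteins collect in the ER, 3 membrane sensors, IRE1 (encoded by Ern1), PERK (Eif2ak3) and ATF6, set off the unfolded protein response. IRE1 splices Xbp1 mRNA, ATF6 is cut into a transcription factor, and PERK phosphorylates the translation factor eIF2alpha, as do the kinases HRI (Eif2ak1), PKR (Eif2ak2) and GCN2 (Eif2ak4). Phosphorylated eIF2alpha lowers general translation but favours translation of Atf4 mRNA, and ATF4 then induces genes for amino acid supply, glutathione turnover and feedback on eIF2alpha. In growing cells mTORC1 is also known to raise ATF4 and its target Mthfd2, apart from stress. The values below are mRNA levels per gene, so they show neither splicing of Xbp1, nor cleavage of ATF6, nor phosphorylation, nor translation.

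RNA was sequenced from fully grown oocytes at the germinal vesicle stage, which are arrested in prophase of meiosis, taken from C57BL/6 females 46 h after an injection of PMSG (5 IU), a hormone that stimulates follicles to grow. There were 3 groups of 3 libraries. WT is wild type, for which the labels give no allele and no Cre. MG and MZ are conditional knockouts of Mtor, the kinase of the mTOR complexes, made in the oocyte by Cre under the Gdf9 promoter (MG) or the Zp3 promoter (MZ). Both promoters are active in oocytes, and Gdf9-Cre is known to act from an earlier follicle stage. The series design gives an age of 23 days and the sample labels one of 6 months, so the age of the females is uncertain. The labels do not say that the 3 libraries of a group are from different animals. The p-values therefore reflect only how far these libraries vary, and that variation may be technical.

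Stress factors read short DNA motifs, and promoter stretches with a match are shown first to give the letters these factors are known to bind. The ER stress response element (ERSE, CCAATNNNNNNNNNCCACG) is bound by ATF6, and by XBP1 in some contexts, with NF-Y. Among RefSeq promoter windows of 300 bases (250 before and 50 after the start, GRCm38.p6), a match on either strand was found in 39 of 32851 windows (0.119%). By gene symbol, this was 37 of 27025 (0.137%). Of the 41 members with a window (all but Atf6, Derl1, Manf and Ppp1r15b), 5 (12.2%) had a match, and all 5 encode ER folding or degradation factors. In the stretches below, written 5′ to 3′ along the gene's strand, capitals mark the match, which reads in reverse complement for Calr and Creld2.
Calr (chr8:84847050-84847118, minus strand): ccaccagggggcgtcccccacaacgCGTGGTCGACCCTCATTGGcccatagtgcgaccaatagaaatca
Canx (chr11:50325775-50325843, minus strand): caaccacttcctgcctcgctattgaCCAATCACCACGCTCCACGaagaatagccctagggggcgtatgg
Creld2 (chr15:88819495-88819563, plus strand): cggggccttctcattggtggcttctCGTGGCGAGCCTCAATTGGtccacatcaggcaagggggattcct
Pdia6 (chr12:17266466-17266534, plus strand): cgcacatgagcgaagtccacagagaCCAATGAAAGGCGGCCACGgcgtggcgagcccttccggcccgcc
Syvn1 (chr19:6046507-6046575, plus strand): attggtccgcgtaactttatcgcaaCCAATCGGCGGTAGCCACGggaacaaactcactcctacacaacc

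The C/EBP-ATF response element (CARE, searched as TGATGNAAN on either strand) is bound by ATF4 with a C/EBP partner. It was found in 1299 windows (3.95%), or by gene symbol in 1215 of 27025 (4.5%). Among the 41 members 8 had it (19.5%), namely Asns, Atf3, Chac1, Herpud1, Nupr1, Pycr1, Trib3 and Vldlr. The stricter form TGATGCAAT, which is a subset of these matches, was in 63 windows (0.192%), among them those of Nupr1 and Pycr1. The ERSE-II motif (ATTGG, any base, then CCACG) was in 12 windows (0.037%), 1 of them that of Herpud1, and the core of the XBP1 site (TGACGTGG) was in 222 windows (0.676%) and in 0 members. Chac1 and Herpud1 are printed because Chac1 was the CARE gene with the highest mean in MG, while Herpud1, which holds both motifs, was close to 0. Capitals mark the CARE in reverse complement in the first pair of stretches, and the ERSE-II in the last.
Chac1 (chr2:119351023-119351081, plus strand): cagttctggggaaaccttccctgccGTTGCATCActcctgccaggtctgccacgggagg
Herpud1 (chr8:94386291-94386349, plus strand): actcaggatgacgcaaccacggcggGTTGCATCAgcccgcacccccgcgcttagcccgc
Herpud1 (chr8:94386352-94386412, plus strand): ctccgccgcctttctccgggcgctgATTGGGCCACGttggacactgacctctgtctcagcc
A match is a description of the letters and not a shown binding site, and its absence says nothing of the factor.

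Levels are given as FPKM, fragments scaled to transcript length and sequencing depth, as deposited by the authors. Counting the steps between low values put the libraries at about 567500 (MG 1) to 999800 (MZ 2) fragments, and 1 fragment in a transcript of 1 kb was worth 1.38 (MG 3) to 2.49 (MZ 1) FPKM. The FPKM sum of a library was lower in MG (498936 ± 64355) than in WT (652537 ± 67110) and MZ (670216 ± 10778; SD, n = 3 each), and lowest in MG 3 (428329). MG 3 was put at about 822300 fragments. Mtor itself had 3.17 ± 0.20 FPKM in WT, 5.29 ± 0.68 in MG and 5.20 ± 1.18 in MZ (SD, n = 3 each). All MG and MZ values of Mtor lay above all its WT values (limma adjusted p = 0.36 and 0.8 against WT). This row therefore does not show the loss that the labels name. It also counts exons outside any deleted part, and its locus is shared with Angptl7. Why it was higher was not tested, and MG and MZ stand for the libraries labelled so. All 15 oocyte markers were above 0 in every library. The oocyte marker sum ran from 32442 to 40198 FPKM in WT, from 17941 (MG 3) to 36054 in MG and from 39717 to 40937 in MZ. The granulosa and cumulus list (16 markers, Foxl2 and Lhcgr at 0 throughout) summed to 20.8 to 34.7 FPKM in WT, 24.2 to 39.99 in MG and 23.2 to 28.9 in MZ. The 4 immune markers summed to 42.3 to 51.6 FPKM in WT, 25.5 to 144.1 (MG 1) in MG and 21.5 to 173.8 (MZ 3) in MZ. The part of other cells in the results was not tested. Libraries are bulk samples, so fewer cells of a type and less RNA per cell cannot be told apart.

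The members covered a wide range of levels. In WT, 11 of the 45 had a mean of at least 50 FPKM, 14 lay between 5 and 50, and 20 lay under 5. Atf4 was the most abundant (211 ± 101 FPKM), followed by Mthfd2 (136.2 ± 22.8) and Calr (116.8 ± 24.5). The SDs of these 3 neighbours in the order overlap, so their order is not fixed. Ddit3 (89.8 ± 26.5 FPKM), Creld2 (83.2 ± 23.9) and P4hb (67.2 ± 16.8) came next. Nupr1, a stress-induced chromatin cofactor, was listed at 0 in all 9 libraries, and Asns and Psat1 in 8 of 9. Together the members took 0.189 ± 0.013% of the FPKM sum in WT, 0.214 ± 0.007% in MG and 0.196 ± 0.008% in MZ (SD, n = 3 each).

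**Figure D1:**
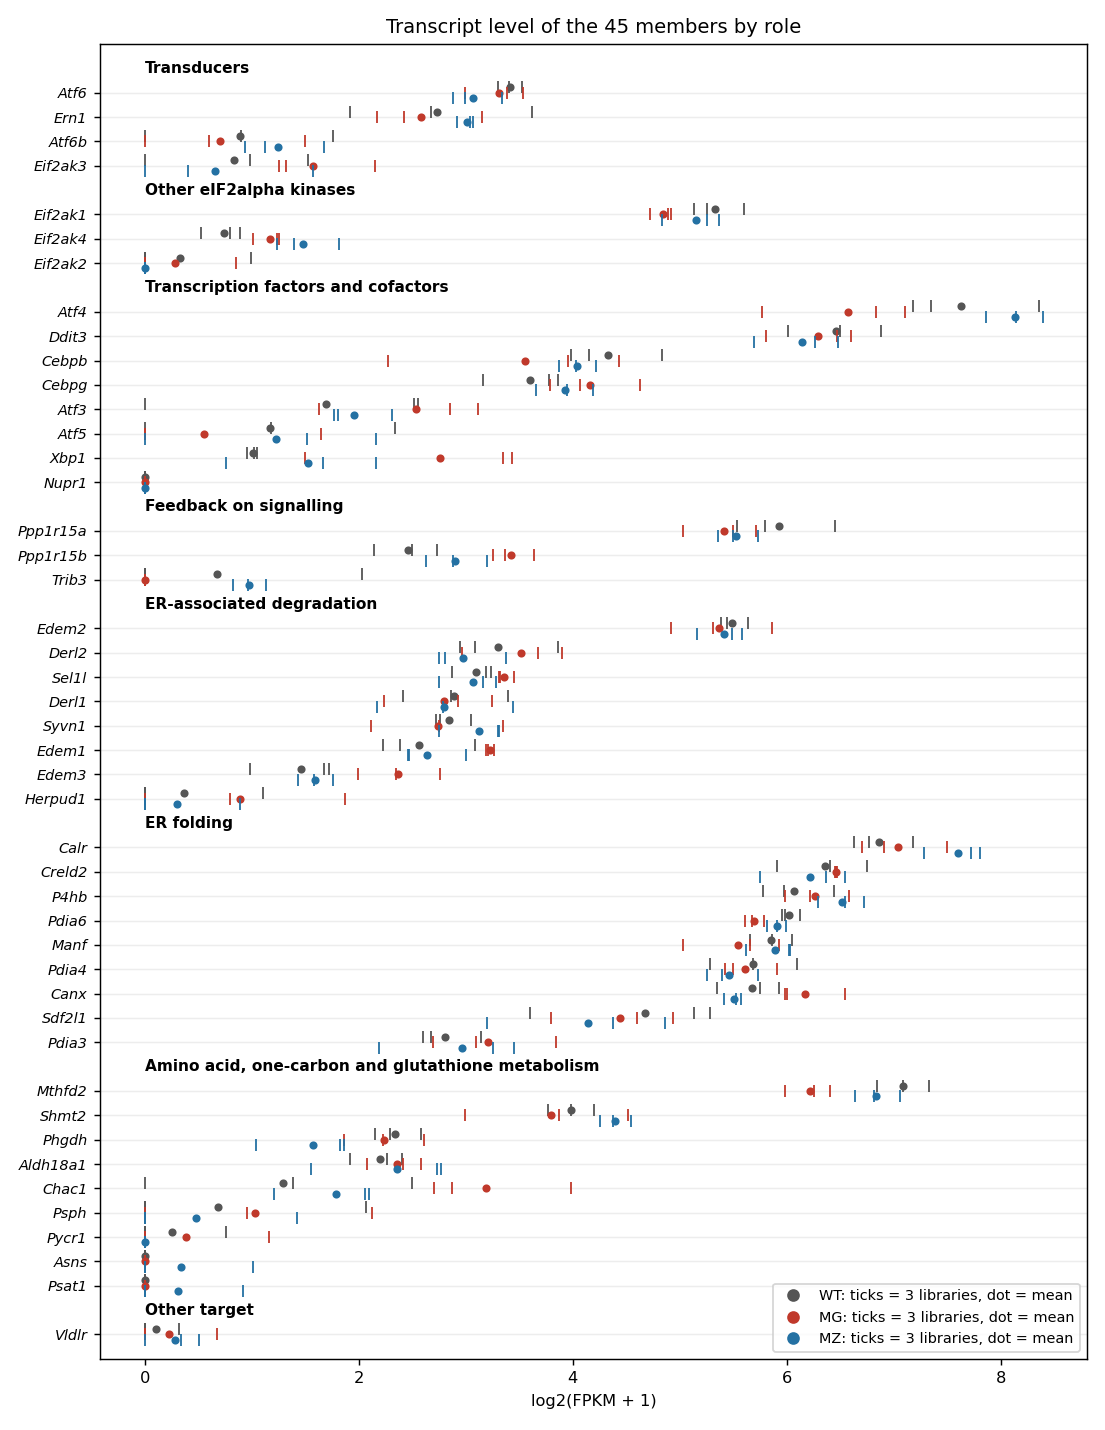
Level of all 45 genes by role; the x axis is log2(FPKM + 1), ticks are the 3 libraries of each group and dots their mean on that scale. Atf4, Mthfd2 and Calr lie at the high end, while sensors such as Eif2ak3 and amino acid enzymes such as Asns and Psat1 lie near 0.

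Of the 45 genes, 37 had at least 1 FPKM in at least 3 of the 9 libraries and entered the test, which compared log2(FPKM + 1) across 10801 genes with limma. The 8 genes that did not were Asns, Eif2ak2, Herpud1, Nupr1, Psat1, Pycr1, Trib3 and Vldlr. For MG against WT, 0 of the 37 passed at an adjusted p under 0.05, where 0.343% of all genes tested did (0.185% higher and 0.157% lower in MG). At an unadjusted limma p under 0.05, 5 of the 37 were higher in MG (8.43% of all genes) and 2 were lower (9.31%), beside 17.7% of all genes in either direction. Between MZ and WT limma also called 0 of 37, where it called 0.037% of all genes (0.0278% higher and 0.00926% lower in MZ). At an unadjusted limma p under 0.05 it gave 1 member higher in MZ (2.68%) and 0 lower (3.62%), beside 6.3% of all genes in either direction. Between MG and MZ limma called 0 of 37, where it called 0.13% of all genes (0.0741% higher and 0.0556% lower in MG). Unadjusted, 3 members were higher in MG (8.32% of all genes) and 3 lower (9.32%). According to the authors' deposited table, 2 of the 45 members had a q under 0.05 for WT and MG (1.84% of rows), 1 for WT and MZ (0.351%) and 4 for MG and MZ (4.03%). The authors' deposited table gives a p of exactly 1 to 30, 29 and 29 of the members in the same order. The direction of each value below is therefore a description of these libraries unless a test is said to have passed.

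The count over all genes moved with single libraries. Between MG and WT it was 37. Leaving out WT 1, WT 2 or WT 3 gave 5, 9 or 3 genes, leaving out MG 1, MG 2 or MG 3 gave 32, 6 or 23, and leaving out MZ 1, MZ 2 or MZ 3 gave 10, 10 or 12. Between MZ and WT it was 4. It became 0 when WT 3 or any 1 MZ library was left out, 1 when WT 1 or MG 3 was, 2 when MG 2 was, and reached 6 when MG 1 was. Between MG and MZ it was 14. It became 213 when WT 1 was left out and 210 when MG 1 was, 9 or 1 for WT 2 or WT 3, 3 for either of the other MG libraries, and 0 for any 1 MZ library.

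Among the sensors, Ern1, Atf6, Atf6b and Eif2ak3 were low. Atf6 had 9.57, 10.5 and 8.86 FPKM in WT, 6.98, 9.46 and 10.6 in MG, with 9.09, 6.37 and 6.97 in MZ. Ern1 had 11.2, 5.37 and 2.77 FPKM in WT, 7.90, 4.37 and 3.48 in MG, with 7.38, 6.54 and 7.21 in MZ. The groups overlapped for both, and the WT values of Ern1 spread more than any difference between group means. Eif2ak3 had 0, 1.88 and 0.97 FPKM in WT, 1.49, 3.45 and 1.39 in MG, with 0, 0.32 and 1.98 in MZ, which is about 1.8, 5.1 and 1.8 fragments per library. At this depth a difference in Eif2ak3 was not detected (log2 fold change 0.74 ± 0.55 for MG against WT, SE; limma adjusted p = 0.52). Atf6b, a relative of Atf6, had 0 to 2.38 FPKM over the 9 libraries.

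Eif2ak1, which encodes the haem-regulated kinase HRI, was the most abundant of the eIF2alpha kinases. Its FPKM was 47.5, 37.3 and 34.1 in WT, 29.3, 25.4 and 28.7 in MG, with 40.3, 27.6 and 37.2 in MZ. The 3 MG values lay below the 3 WT values, and the MZ values overlapped both groups. The log2 fold change for MG against WT was -0.49 ± 0.22 (SE, limma adjusted p = 0.28). With libraries scaled to the same FPKM sum it was -0.11, which is -0.47 relative to the median of all genes, beside -0.53 as deposited. Its locus in the files overlaps those of Aimp2 and Ankrd61, so reads may be shared. Eif2ak4, which encodes the amino acid sensor GCN2, had 0.73, 0.85 and 0.44 FPKM in WT, 1.35, 1.39 and 1.01 in MG, with 1.36, 1.63 and 2.51 in MZ. All 6 knockout values were above all 3 WT values, yet they rest on about 1.6 fragments per library in WT, 3.5 in MG and 5 in MZ. The limma adjusted p was 0.59 for MG against WT and 0.79 for MZ against WT. Eif2ak2, the kinase activated by double-stranded RNA, was listed at 0 in 7 of 9 libraries.

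Atf4 (chromosome 15, 80255184 to 80257541, GRCm38, protein coding) had the lowest values in MG. Its FPKM was 327.1, 161.5 and 144.3 in WT, 136.3, 113.4 and 53.6 in MG, with 334.9, 231.5 and 282.1 in MZ. The 3 MG values lay below all 6 other values, while WT 1 lay among the MZ values and WT 2 and WT 3 below them. About 190, 100 and 280 fragments per library lie behind the means of 211 ± 101, 101.1 ± 42.7 and 282.8 ± 51.7 FPKM (SD, n = 3 each). On the log2 scale the MG minus WT difference was -1.06 ± 0.37 (SE; limma adjusted p = 0.18, 0.11 to 0.41 over 19 alternative fits). Against MZ it was -1.56 ± 0.37 (SE, limma adjusted p = 0.082). In that comparison Atf4 passed in 3 of 19 alternatives, with limma adjusted p of 0.031 to 0.24, and those that leave out a library were without WT 1 (0.041) and without MG 1 (0.047). Leaving out either library also raised the count over all genes, from 14 to as many as 213, so these passes are not particular to Atf4. The Atf4 difference between MZ and WT was 0.50 ± 0.37 (SE, limma adjusted p = 0.86), and it ran from 0.28 without WT 3 to 0.87 without WT 1. The authors' deposited table lists Atf4 with q = 0.0019 for WT and MG, 0.23 for WT and MZ, and 0.00064 for MG and MZ. MG 3, with the lowest Atf4 value, was also the library with the lowest FPKM sum and oocyte marker sum. Without MG 3 the log2 fold change for MG against WT was -0.66, and without WT 1 it was -0.69.

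Xbp1 (chromosome 11, 5520659 to 5525893), the target of IRE1, was near 1 FPKM in every WT library. It had 0.94, 1.03 and 1.06 FPKM in WT, 9.76, 9.21 and 1.82 in MG, with 2.17, 0.70 and 3.46 in MZ. All 3 MG values were above the WT values, but MG 3 lay within the MZ range. The mean of about 7.2 fragments per library in MG compares with 0.94 in WT and 2.2 in MZ. The log2 fold change for MG against WT was 1.75 ± 0.56 (SE, limma adjusted p = 0.16), with a range from 0.91 (pseudocount of 5) to 2.38 (without MG 3) over 18 alternatives. Without MG 1 it was 1.42.

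Ddit3, which encodes the pro-apoptotic factor CHOP, had 89.5, 63.4 and 116.5 FPKM in WT, 87.7, 54.8 and 96.3 in MG, with 50.7, 75.7 and 88.3 in MZ. The 3 groups overlapped, and limma adjusted p was 0.81 to 0.89 over the 3 comparisons. Its locus overlaps that of Mars, so some of these reads may belong to that gene. Cebpb had 14.8, 27.6 and 16.8 FPKM in WT, 20.6, 14.5 and 3.82 in MG, with 15.4, 17.6 and 13.7 in MZ, with the lowest value again in MG 3. Cebpg, a C/EBP partner of ATF4, had 12.7, 13.5 and 7.92 FPKM in WT, 12.8, 15.8 and 23.7 in MG, with 17.2, 11.6 and 14.4 in MZ. Atf3 reached at most 7.68 FPKM (MG 2) and Atf5 at most 4.05 FPKM (WT 3). The Atf5 locus is shared with 4 other genes.

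The 2 feedback genes tested lay on different sides of WT in MG, and neither passed the test. Ppp1r15b (chromosome 1, 133131143 to 133139783) encodes CReP, the constitutive subunit that directs a phosphatase to eIF2alpha. Its FPKM was 3.42, 5.63 and 4.66 in WT, 11.4, 8.55 and 9.31 in MG, with 5.17, 6.35 and 8.19 in MZ. The 3 MG values were above all 6 other values, with about 11, 30 and 19 fragments per library in WT, MG and MZ. On the log2 scale the MG minus WT difference was 0.96 ± 0.31 (SE; limma adjusted p = 0.16) and 0.52 ± 0.31 for MG against MZ (limma adjusted p = 0.41). Ppp1r15a, the stress-induced counterpart GADD34, had 45.3, 54.5 and 86.6 FPKM in WT, 44.1, 51.5 and 31.6 in MG, with 40.1, 52.1 and 44.2 in MZ. These groups overlapped (log2 fold change -0.51 ± 0.27 for MG against WT, SE; limma adjusted p = 0.36). The value was -0.25 without WT 3, -0.32 without MG 3 and -0.13 with equal FPKM sums (-0.49 relative to the median of all genes, beside -0.56 as deposited). The Ppp1r15a locus is shared with Dhdh, Nucb1 and Tulp2. Trib3, a pseudokinase that restrains ATF4, was listed at 0 in all MG libraries and had 3.09, 0 and 0 FPKM in WT and 1.19, 0.76 and 0.95 in MZ, about 1 fragment in the libraries of MZ.

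Genes of ER-associated degradation, which moves misfolded proteins out of the ER to the proteasome, were mostly under 15 FPKM. Edem2, a mannosidase-like lectin, was the exception with 44.03 ± 4.12 FPKM in WT, 41.7 ± 14.3 in MG and 41.9 ± 6.22 in MZ (SD, n = 3 each). Edem3 (chromosome 1, 151755371 to 151822051), of the same family, had 2.29, 2.198 and 0.97 FPKM in WT, 2.97, 4.09 and 5.75 in MG, with 1.996, 1.70 and 2.37 in MZ. Edem1 had 4.22, 7.49 and 3.69 FPKM in WT, 8.25, 8.12 and 8.63 in MG, with 4.53, 7.001 and 4.49 in MZ. Sel1l, the adaptor of the ubiquitin ligase HRD1, had 6.31, 8.12 and 8.39 FPKM in WT, 8.89, 9.91 and 8.99 in MG, with 5.73, 8.72 and 7.95 in MZ. For all 3 genes the MG values lay above all 6 other values. The log2 fold changes for MG against WT were 0.91 ± 0.38 for Edem3, 0.66 ± 0.33 for Edem1 and 0.26 ± 0.28 for Sel1l (SE), with limma adjusted p = 0.25, 0.34 and 0.67. With a pseudocount of 5 the value of Edem3 was 0.44. Syvn1, which encodes HRD1 and holds an ERSE, had 5.603 to 7.28 FPKM in WT, 3.32 to 9.18 in MG and 5.72 to 8.94 in MZ. The Syvn1 locus is shared with Mrpl49 and Mir6988. Derl1 and Derl2 (the latter sharing its locus with Mis12), channel proteins, overlapped between the groups, and Herpud1 was listed at 0 in 5 of 9 libraries.

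ER folding genes were abundant, with 7 of 9 above 50 FPKM in WT. Canx (chromosome 11, 50293961 to 50325673), the membrane lectin chaperone calnexin, had 52.9, 60.01 and 39.8 FPKM in WT, 62.1, 63.1 and 92.1 in MG, with 45.004, 41.7 and 46.6 in MZ. The MG values lay above all 6 others. On the log2 scale the MG minus WT difference was 0.50 ± 0.22 (SE; limma adjusted p = 0.28) and 0.67 ± 0.22 for MG against MZ (limma adjusted p = 0.15). The first value was 0.31 without MG 3 and 0.33 without WT 3. Calr (chromosome 8, 84841850 to 84846934), the soluble counterpart calreticulin, had 144.5, 107.8 and 98.04 FPKM in WT, 179.6, 119.1 and 103.2 in MG, with 222.6, 155 and 209.7 in MZ. Here the 3 MZ values lay above the 3 WT values, and MG overlapped both. Its log2 fold change for MZ against WT was 0.74 ± 0.25 (SE, limma adjusted p = 0.67), and this was the 1 member with an unadjusted p under 0.05 in that comparison.

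The authors' deposited table gives q = 0.021 for Calr between WT and MZ, and q = 0.006 for Canx and 0.031 for Calr between MG and MZ. These lectin chaperones, both with an ERSE, had their highest means in different knockouts. With equal FPKM sums, however, Calr had scaled means of 161 in MG and 177 in MZ. Its log2 fold change for MG against MZ went from -0.57 as deposited to -0.14 with equal sums. Relative to the median of all genes these were -0.61 and -0.53. The other ERSE genes had log2 fold changes for MG against WT of -0.33 (Pdia6), 0.11 (Creld2) and -0.11 (Syvn1), with limma adjusted p of 0.34 to 0.92. Pdia6, a protein disulfide isomerase, had 61.0, 68.96 and 62.5 FPKM in WT, 47.7, 54.4 and 50.2 in MG, with 62.6, 59.1 and 55.3 in MZ. As deposited, its MG values lay below all 6 others. Scaled to the same FPKM sum, its log2 fold change against WT was 0.05, which is -0.31 relative to the median of all genes, beside -0.38 as deposited. Its locus is shared with Atp6v1c2. P4hb, the classical disulfide isomerase, had 86.0, 61.7 and 53.8 FPKM in WT, 94.7, 73.2 and 62.4 in MG, with 104.3, 77.6 and 92.6 in MZ, with overlap throughout as deposited. Creld2 and Manf, secreted ER stress proteins, had group means of 75.4 to 87.1 and 47.1 to 58.9 FPKM. Sdf2l1 spread widely within WT (11.2, 34.02 and 37.9 FPKM).

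**Figure D2:**
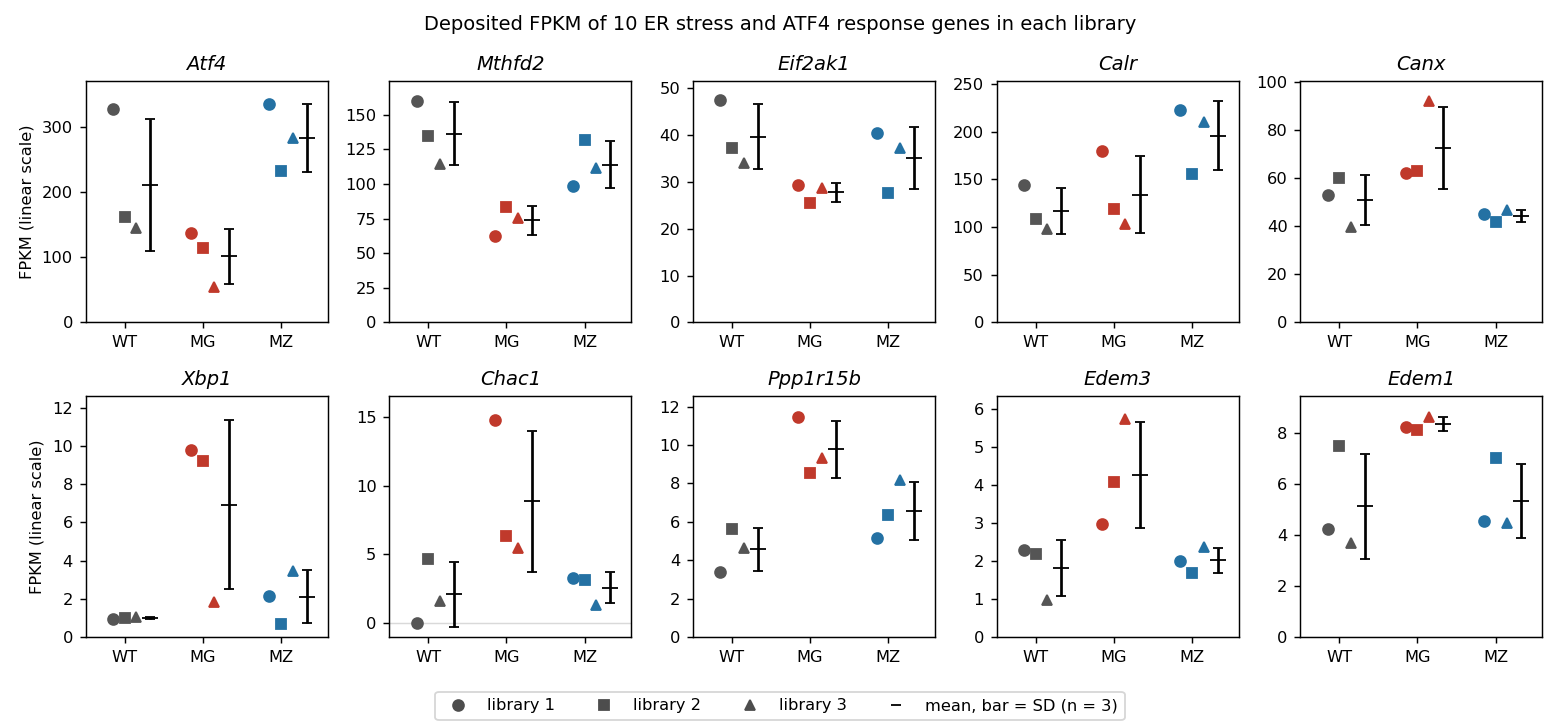
FPKM of 10 genes in each library on linear axes that start at or below 0; symbols are libraries and the black bar is the mean with its SD (n = 3). The MG values of Atf4 and Mthfd2 lie under all other values, those of Canx, Chac1, Ppp1r15b, Edem3 and Edem1 lie over all other values, and Calr has its highest mean in MZ.

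Mthfd2 (chromosome 6, 83305691 to 83325908), the mitochondrial folate enzyme that ATF4 and mTORC1 are known to induce, had the smallest p of the members for MG against WT. Its FPKM was 159.7, 134.8 and 114.2 in WT, 62.3, 83.4 and 75.5 in MG, with 98.8, 132 and 111.5 in MZ. The 3 MG values lay below all 6 others, and WT and MZ overlapped. About 130, 86 and 120 fragments per library lie behind the means. On the log2 scale the MG minus WT difference was -0.87 ± 0.20 (SE; limma adjusted p = 0.083, 0.072 to 0.23 over 19 alternatives). Between MG and MZ it was -0.62 ± 0.20 (SE, limma adjusted p = 0.14), and -0.25 ± 0.20 between MZ and WT (SE, limma adjusted p = 0.88). The authors' deposited table gives Mthfd2 q = 0.0056 for WT and MG, 0.55 for WT and MZ and 0.015 for MG and MZ.

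Chac1 (chromosome 2, 119351229 to 119354381), a glutathione-degrading enzyme and a standard target of ATF4, stood on the other side. It had 0, 4.66 and 1.61 FPKM in WT, 14.8, 6.33 and 5.49 in MG, with 3.27, 3.16 and 1.31 in MZ. The MG values were above all 6 others, on about 1.4, 7.3 and 2.2 fragments per library in WT, MG and MZ. Its log2 fold change for MG against WT was 1.89 ± 0.61 (SE, limma adjusted p = 0.16). This value was 1.24 without WT 1, 1.49 without MG 1, and ran from 0.96 to 3.12 with pseudocounts of 5 and 0.1. Against MZ it was 1.40 ± 0.61 (SE, limma adjusted p = 0.26).

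The remaining enzymes were low or overlapped between MG and WT. Shmt2, which feeds the same mitochondrial folate pathway as Mthfd2, had 12.6, 14.8 and 17.4 FPKM in WT, 21.8, 13.7 and 6.98 in MG, with 19.8, 18.04 and 22.4 in MZ. Its MZ values lay above the WT values (limma adjusted p = 0.89), and its locus is shared with Ndufa4l2. Phgdh, the first enzyme of serine synthesis, had 3.43, 5.00 and 3.89 FPKM in WT, 2.64, 5.09 and 3.69 in MG, with 2.64, 2.54 and 1.05 in MZ. Its MZ values lay below the WT values on about 2 to 3.4 fragments per library (log2 fold change -0.77 ± 0.38, SE; limma adjusted p = 0.79). Psat1 and Psph complete that route. Psat1 was listed at 0 in 8 of 9 libraries, and Psph in 5. Asns, asparagine synthetase, had 1.02 FPKM in MZ 3 and 0 in the others, and Pycr1, of proline synthesis, was at 0 in 7 libraries. Aldh18a1, also of proline synthesis, had 1.94 to 5.80 FPKM over the 9 libraries. The 6 CARE genes other than Chac1 and Atf3 had at most 3.09 FPKM in any library and did not enter the test.

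**Figure D3:**
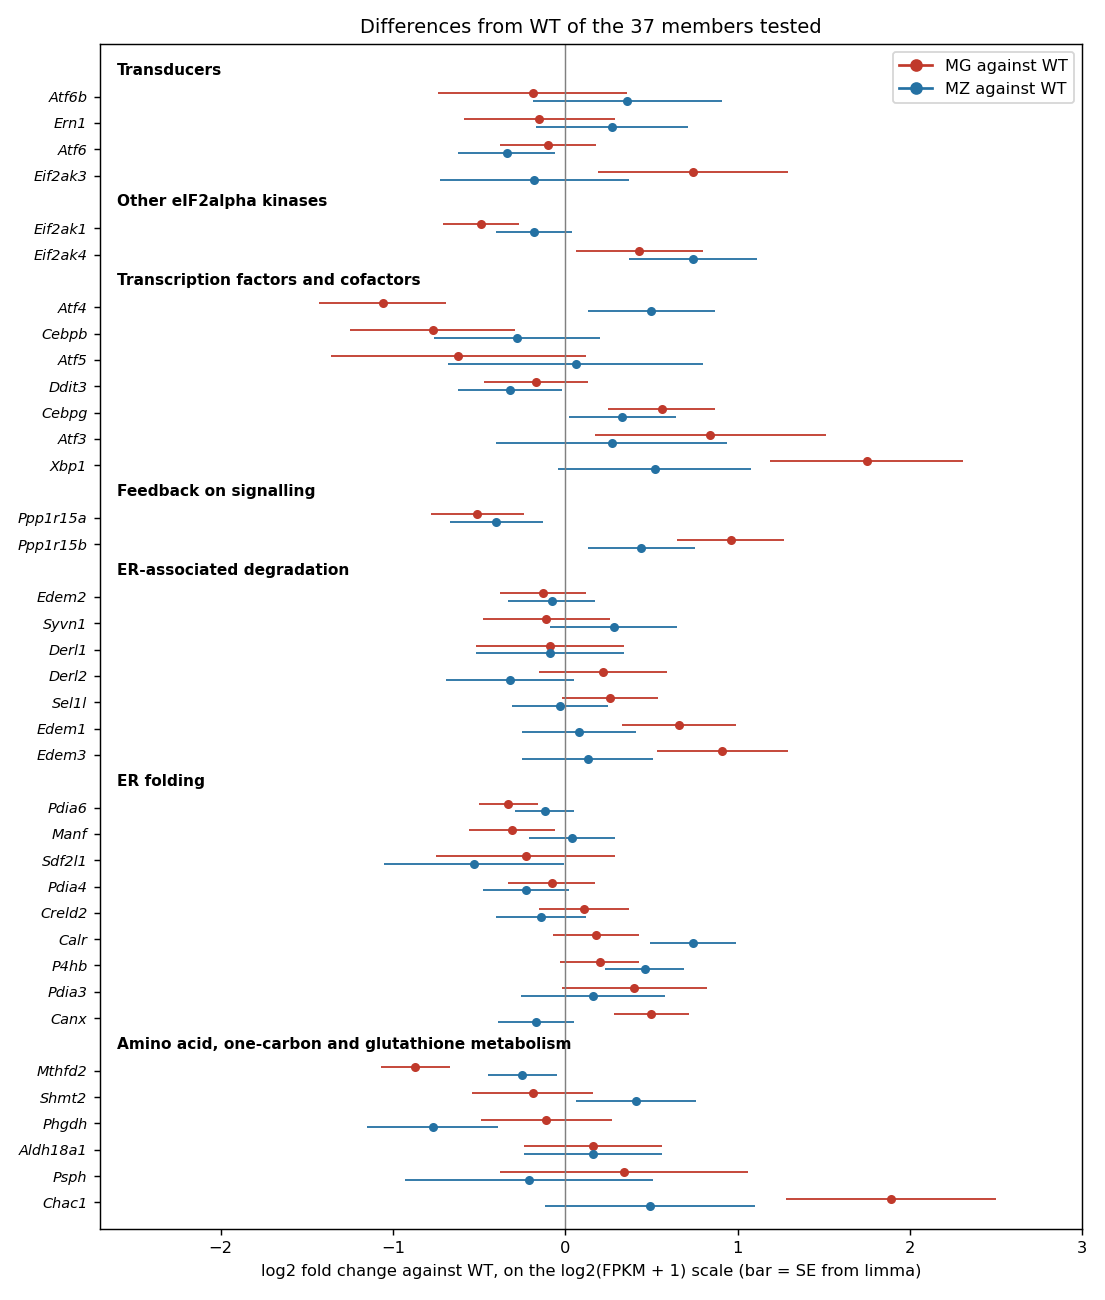
Log2 fold change against WT on the log2(FPKM + 1) scale for the 37 genes tested, by role; red is MG, blue is MZ and bars are the SE from limma. Atf4 and Mthfd2 lie at -1.06 and -0.87 in MG and at 0.50 and -0.25 in MZ, and Xbp1 and Chac1 lie at 1.75 and 1.89 in MG; none of the 37 passed the test.

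Across the list the differences went both ways. For MG against WT, 18 of the 37 log2 fold changes were positive and 19 negative, with a median of -0.08, beside 0.04 over all genes tested, of which 47% were negative. Between MZ and WT, 19 were positive and 18 negative (median 0.04, 0.01 over all genes). Between MG and MZ, 21 were positive and 16 negative (median 0.15, 0.04 over all genes). By library the median of the 37 against the WT mean was 0.22 in MG 1, 0.15 in MG 2 and -0.11 in MG 3, against -0.10 to 0.09 in WT and 0 to 0.08 in MZ. The sign of the MG median against WT rests on single libraries, since it was 0.13 without MG 3, 0.05 without MG 2, 0.04 without WT 3, 0.02 without WT 2 and 0 without WT 1. By role, the median for MG against WT was 0.22 for 7 ER-associated degradation genes, 0.11 for 9 folding genes and -0.17 for 7 transcription factors. It was -0.13 for 4 sensors, 0.03 for 6 metabolic enzymes, -0.03 for 2 other eIF2alpha kinases and 0.22 for 2 feedback genes. These medians rest on few genes and were not tested.

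Groups without overlap were counted as well. For MG against WT, 8 of 37 genes had all MG values above all WT values (11.6% of all genes tested) and 4 had all below (9.89%), with 21.5% of all genes in either direction. The 8 were Xbp1, Eif2ak4, Ppp1r15b, Sel1l, Edem1, Edem3, Canx and Chac1, and the 4 were Atf4, Eif2ak1, Pdia6 and Mthfd2. In MZ against WT the counts were 3 above (5.67%; Eif2ak4, Calr and Shmt2) and 1 below (6.52%; Phgdh), with 12.2% of all genes in either direction. In MG against MZ they were 7 above (12.8%; Ppp1r15b, Sel1l, Edem1, Edem3, Canx, Chac1 and Phgdh) and 3 below (12.3%; Atf4, Pdia6 and Mthfd2), with 25.2% of all genes in either direction. The MG comparisons with WT and with MZ share the MG libraries, so these lists are not independent of each other. Among the 8 higher in MG than WT, the longest transcript was 4281 to 6327 bp for Canx, Edem1, Edem3, Eif2ak4, Ppp1r15b and Sel1l. It was 2129 bp for Xbp1 and 1637 bp for Chac1. Among the 4 lower, it was 2019 bp (Atf4), 2085 (Mthfd2), 2175 (Pdia6) and 4325 (Eif2ak1). Whether transcript length bears on these directions was not tested, and scaling a library by 1 factor does not adjust for length.

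The lower FPKM sums of MG touch these values. Scaling each library to the same FPKM sum moved the median of all genes tested from 0.04 to 0.36 for MG against WT and from 0.04 to 0.39 for MG against MZ. On that scale 11 of 37 members lay above WT in MG without overlap (21.2% of all genes) and 0 lay below (3.22%). Among the 11 were Calr, P4hb and Pdia3, whose MG values overlapped WT as deposited. Against MZ, 9 lay above in MG (28.1%) and 1, Atf4, lay below (4.58%). In MZ against WT the counts were again 3 above (5.02%) and 1 below (6.8%). On this scale the value of Atf4 for MG against WT became -0.67, or -1.03 relative to the median of all genes, compared with -1.10 relative to the median as deposited. That of Mthfd2 became -0.49, or -0.85 relative to the median, compared with -0.92. Xbp1 went to 2.03, Chac1 to 2.15, Ppp1r15b to 1.30 and Canx to 0.88, each with a limma adjusted p of 0.087 to 0.12. Relative to the median as deposited and with equal sums, these were 1.71 and 1.67 for Xbp1, 1.85 and 1.79 for Chac1, 0.92 and 0.94 for Ppp1r15b, and 0.45 and 0.52 for Canx. Pdia6 went to 0.05 for MG against WT, and from -0.38 to -0.31 relative to the median. Eif2ak1 went to 0.11 for MG against MZ, and from -0.35 to -0.28 relative to the median. The signs of Pdia6 and Eif2ak1 in these comparisons therefore depend on the scaling, while both stayed below the median of all genes in both fits.

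**Figure D4:**
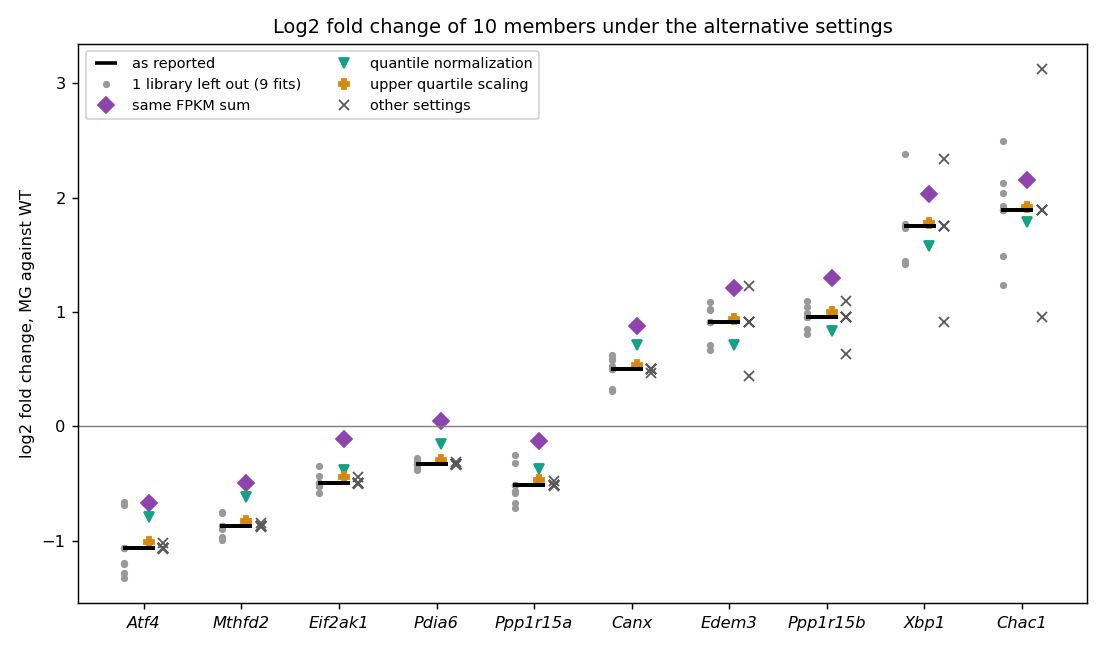
Log2 fold change for MG against WT of 10 genes under each alternative setting; the black line is the value as reported and grey dots leave out 1 library each. Atf4 and Mthfd2 stay below 0, and Canx, Edem3, Ppp1r15b, Xbp1 and Chac1 above 0, in all alternatives shown, while Pdia6 crosses 0 when libraries are scaled to the same FPKM sum, a scaling that moves the median of all genes from 0.04 to 0.36.

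Other genes of the pathway, 69 by a list taken from general knowledge of the response, gave 61 that were tested. Limma called 0 of them in each of the 3 comparisons. For MG against WT, 5 were higher and 10 lower at an unadjusted p under 0.05 (8.43% and 9.31% of all genes). The counts were 0 and 2 between MZ and WT (2.68% and 3.62% of all genes), and 8 and 8 between MG and MZ (8.32% and 9.32%). Hspa5, the ER chaperone BiP that holds the sensors inactive, had 156.1 to 221.8 FPKM in WT, 169.4 to 234.5 in MG and 164.4 to 196.1 in MZ, with limma adjusted p of 0.70 to 0.99. Hsp90b1, the chaperone GRP94, had group means of 24.2 ± 1.78, 28.1 ± 5.33 and 29.1 ± 3.58 FPKM in WT, MG and MZ (SD, n = 3 each). Both chaperones, which are classical markers of ER stress, overlapped between all groups.

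Among these genes Vimp, a selenoprotein of the ER degradation complex, was the highest in MG relative to the others. It had 0, 0 and 2.28 FPKM in WT, 14.0, 10.8 and 6.47 in MG, with 0, 1.49 and 0 in MZ. Its limma adjusted p was 0.060 for MG against WT and 0.068 for MG against MZ. It passed for MG against WT with a pseudocount of 5 and with equal FPKM sums (0.036 for both), and for MG against MZ in 4 of 18 alternatives, 1 of which leaves out WT 1 (0.036). For MG against WT the count over all genes also rose, from 37 to 53 with a pseudocount of 5 and to 66 with equal sums. Relative to the median of all genes, Vimp was at 2.84 as deposited and at 2.81 with equal sums. Derl3, a derlin of the degradation channel, had 95.4, 60.6 and 53.0 FPKM in WT, 62.2, 33.9 and 33.4 in MG, with 101.6, 93.6 and 81.3 in MZ. Its limma adjusted p for MG against MZ was 0.085, and 0.039 without MG 1. With equal FPKM sums the log2 fold change of Derl3 for MG against MZ went from -1.13 to -0.71 (limma adjusted p = 0.12). Relative to the median of all genes it went from -1.18 to -1.1. Leaving out WT 1 or MG 1 also raised the count over all genes for MG against MZ, from 14 to as many as 213.

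Tmbim6, an ER membrane protein that inhibits cell death, had 444.1, 448.8 and 611.3 FPKM in WT, 329.7, 298.5 and 157.2 in MG, with 340.5, 426.2 and 390.8 in MZ. Its limma adjusted p was 0.12 for MG against WT, with the lowest value in MG 3. With equal FPKM sums its log2 fold change went from -0.99 to -0.6 (limma adjusted p = 0.16). Relative to the median of all genes it went from -1.03 to -0.96. Sec61a1 and Sec61b form part of the channel that brings new proteins into the ER. Sec61a1 had 25.9 ± 1.94 FPKM in WT, 15.7 ± 2.63 in MG and 26.1 ± 3.93 in MZ (SD, n = 3 each; limma adjusted p = 0.16 for MG against WT). Sec61b had 182.4 ± 60.7, 113.3 ± 29.6 and 203.4 ± 19.8 FPKM in the same order (limma adjusted p = 0.13 for MG against MZ). With equal FPKM sums Sec61a1 went from -0.69 to -0.32 for MG against WT (limma adjusted p = 0.45). Sec61b went from -0.87 to -0.44 for MG against MZ (limma adjusted p = 0.25). Relative to the median of all genes these were -0.74 and -0.68 for Sec61a1, and -0.92 and -0.83 for Sec61b.

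Nars, an asparaginyl-tRNA synthetase and ATF4 target, had 30.4 ± 6.49 FPKM in WT, 47.3 ± 9.91 in MG and 40.2 ± 3.27 in MZ (SD, n = 3 each), with both knockouts above all WT values (limma adjusted p = 0.21 and 0.81). Ufd1l, a cofactor of the extraction ATPase p97, had 4.24 ± 0.67 FPKM in WT, 8.002 ± 2.77 in MG and 2.87 ± 3.04 in MZ (SD, n = 3 each; limma adjusted p = 0.17 for MG against MZ). Eif2s1, eIF2alpha itself, had 44.1 ± 10.3 FPKM in WT, 28.96 ± 1.39 in MG and 27.2 ± 6.14 in MZ (SD, n = 3 each; limma adjusted p = 0.26 and 0.74 against WT). Eif2b3, a subunit of the exchange factor of eIF2, had 6.29 ± 1.71, 4.62 ± 0.86 and 2.74 ± 2.37 FPKM in the same order. Slc7a5, a large neutral amino acid transporter, had 1.40 ± 0.69, 2.30 ± 1.07 and 2.99 ± 0.80 FPKM.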

How the data were processed

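The members, the lists and the rule for named genes were chosen with earlier results of these data known. Smart-seq2 amplification came before the NEBNext Ultra library kit, per the labels' protocols. Paired reads of 150 bp were aligned to mm10 with TopHat2 2.0.13 and FPKM were computed by the authors with Cufflinks 2.2.1, per the series design and the submitters' processing notes. The deposited p-values and q-values come from Cuffdiff, per the design text. Annotation and strand setting are not given in the sources used here. Of 24255 rows, 27 with a date for a symbol were left out. A gene listed at 0 FPKM may be one whose estimate failed.

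Log2(FPKM + 1) of genes with at least 1 FPKM in at least 3 of 9 libraries was fitted with limma 3.58.1 in R 4.3.3 (variance trend, all libraries, 6 residual degrees of freedom), two-sided, with Benjamini-Hochberg adjustment over 10801 genes. This scale understates the change of low genes. Named are up to 5 members per direction and comparison by p, the regulators, the most abundant member of each role, and up to 2 other pathway genes per direction. Coordinates are from GENCODE M21. Fragments were estimated from the lowest FPKM steps in 2220 single-transcript genes (1500 bp or longer), where 80% to 86.4% of low values lay within 15% of 1 fragment. The step was placed where most values fell near it, so this share is no independent check. Fragment numbers are approximate, and reads without molecular identifiers are not independent molecules. The fit was run on simulated data with planted changes as a check of the code only. The spread in that simulation was not taken from these libraries, so it does not measure power or error here.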

Additional observations from a re-analysis of the deposited data

How the results depend on the processing

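No member passed in any of the 19 alternative fits for MG against WT or MZ against WT. For MG against MZ, 1 member (Atf4) passed with the replicate block and in 2 of 9 fits without 1 library (0 to 1 over these). Deviations of same-numbered libraries correlated at -0.07 to 0.073 over 9 pairs, beside -0.114 to 0.082 over 18 pairs of different number. This shows no pairing by replicate number, but it cannot exclude a shared batch. With the replicate block the genes called were 13 for MG against WT, 0 for MZ against WT and 159 for MG against MZ, with 1 other pathway gene (Derl3) in the last.

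The number of genes called for MG against WT (37, 20 higher and 17 lower) was 17 without a filter, 66 with equal FPKM sums (61 higher, 5 lower), 21 after quantile normalization (of which 16 higher), 5 with the 2 groups only, and 3 to 32 without 1 library. For MZ against WT (4, 3 higher and 1 lower) it was 2 with a pseudocount of 0.1 and without a filter, 0 with a mean of at least 5 FPKM, 1 with equal sums and also after quantile normalization, 7 without the variance trend and 0 to 6 without 1 library. For MG against MZ (14, 8 higher and 6 lower) it was 6 and 30 with pseudocounts of 0.1 and 5, 9 without a filter, 41 with a mean of at least 5 FPKM, 31 with equal sums (25 higher and 6 lower), 9 without the variance trend, 73 with the 2 groups only and 0 to 213 without 1 library.

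Of the other pathway genes, 1 passed for MG against WT with a pseudocount of 5 and 1 with equal sums. For MG against MZ 1 passed in each of these and with the 2 groups only, and 0 to 2 without 1 library. The members' median for MG against WT (-0.08) was 0.31 with equal sums, 0.05 with quantile normalization and -0.08 to 0.13 without 1 library. For MZ against WT (0.04) it was -0.08 with a mean of at least 5 FPKM and -0.09 to 0.15 without 1 library. For MG against MZ (0.15) it was -0.02 with a mean of at least 5 FPKM, 0.58 with equal sums and -0.01 to 0.21 without 1 library. With equal sums Pdia6 reversed to 0.05 for MG against WT and Eif2ak1 to 0.11 for MG against MZ, while the median of all genes moved to 0.36 and 0.39. Relative to that median they were -0.31 and -0.28. Equal sums rescale every library, and the causes of these shifts were not tested. Genes of a few FPKM, such as Xbp1 and Chac1, rest on a handful of fragments.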
